A study of Mus musculus with 8 samples.

Results

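The results below describe 9 genes whose enzymes break down amino acids in the liver: Tdo2, Hpd, Hgd, Fah, Hal, Uroc1, Aass, Prodh and Cdo1. They were chosen by name, as the genes whose probes carry these symbols in the scanner annotation, and each was represented by its brightest probe. The choice was made with earlier results of these data known. All 9 passed the filter on dim probes and were tested, among 17050 genes in all. They had 10 probes, of which Tdo2 had 2, and each probe was well above background on all 8 arrays.

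The liver takes up amino acids that are not needed for protein synthesis and feeds their carbon into glucose, ketone body and energy metabolism, while the nitrogen leaves as urea. Tdo2, tryptophan 2,3-dioxygenase, opens the tryptophan ring and starts the kynurenine pathway. Hpd (4-hydroxyphenylpyruvate dioxygenase), Hgd (homogentisate 1,2-dioxygenase) and Fah (fumarylacetoacetate hydrolase) act in turn on the tyrosine skeleton, and loss of Hgd causes alkaptonuria and loss of Fah hereditary tyrosinaemia. Hal (histidine ammonia-lyase) and Uroc1 (urocanate hydratase) take consecutive steps of histidine breakdown. Aass starts the main route of lysine breakdown, Prodh oxidises proline in mitochondria, and Cdo1 (cysteine dioxygenase) oxidises cysteine on the way to taurine and sulfate. Glucocorticoids and glucagon are known to induce several enzymes of this kind in the fasting liver, Tdo2 and Tat among them.

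The measurements are from total RNA of mouse liver on 8 one-colour arrays. The strains C57BL/6J and KKAy were each sampled at the ages of 4 and 11 weeks, with 2 arrays for each combination. KKAy mice bear the yellow agouti allele, which is active in all tissues rather than in the liver alone, and become obese and diabetic; C57BL/6J is a standard inbred strain and differs from KKAy across its background as well as at agouti. Both strains were fed chow and went without food overnight before sampling. The labels call KKAy diabetic and C57BL/6J normal, and the sex of the mice and any pooling are not given in the sources used here. Whether the replicates of a group were different animals is not stated, so p-values rest on how far these samples differ from each other, a spread that may be technical. The younger mice of both strains shared a slide and the older mice another, so strains were compared within a slide, while age cannot be told apart from slide. On each slide C57BL/6J held positions 1 and 2 and KKAy positions 3 and 4, so strain and position cannot be told apart either. In bulk tissue, fewer cells of a type and less RNA per cell cannot be told apart.

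The 250 bases upstream of the annotated start are printed for 3 members (RefSeq, build GRCm38.p6, 5′ to 3′ on the strand of the gene). These members include genes that were and were not called between strains by the fit reported here. Tdo2 and Aass were lower in KKAy at 11 weeks, and Hal was called in no comparison by the fit reported here, though it was in some alternatives given with its values and in the section on processing choices. Of the 9 members 8 were found in the promoter table. Capitals mark matches, on either strand, to the short motifs TATAAA and CCAAT, the latter read as ATTGG on the opposite strand; these 2 motifs do not overlap each other in the windows shown.
Tdo2, chr3:81975729-81975978, minus strand: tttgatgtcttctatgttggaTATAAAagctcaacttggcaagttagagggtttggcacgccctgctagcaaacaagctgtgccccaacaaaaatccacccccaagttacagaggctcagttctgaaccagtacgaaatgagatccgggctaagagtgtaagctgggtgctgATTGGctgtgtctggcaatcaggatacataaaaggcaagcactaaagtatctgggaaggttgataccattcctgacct
Aass, chr6:23132987-23133236, minus strand: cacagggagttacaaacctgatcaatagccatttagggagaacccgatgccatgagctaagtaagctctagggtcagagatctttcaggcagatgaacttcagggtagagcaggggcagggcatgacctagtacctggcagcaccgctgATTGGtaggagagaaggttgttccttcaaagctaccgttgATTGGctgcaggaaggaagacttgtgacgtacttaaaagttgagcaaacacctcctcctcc
Hal, chr10:93488518-93488767, plus strand: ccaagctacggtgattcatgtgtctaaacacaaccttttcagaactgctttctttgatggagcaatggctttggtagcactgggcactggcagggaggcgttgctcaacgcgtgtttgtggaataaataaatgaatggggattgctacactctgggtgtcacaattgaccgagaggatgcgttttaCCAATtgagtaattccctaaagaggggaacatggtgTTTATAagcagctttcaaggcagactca
The CCAAT letters were present in all 3 windows printed, and in 5 of the 8 members of the table (Tdo2, Hgd, Hal, Uroc1 and Aass), against 33.8% of 32851 windows of the same length. The windows of Hpd, Fah and Prodh, which are not printed, lacked them. In Hgd, Uroc1 and Prodh the start used for the window is not the outer edge of the annotated gene, and these windows are counted here all the same. TATAAA was present in Tdo2, Hgd and Hal, against 12.4% of windows. GGGCGG, the core of a GC box, was present in Hpd and Fah only among these 8, against 32.7% of windows. The half-site TGTTCT of the glucocorticoid receptor, GTTAAT of HNF1 and the forkhead core TGTTTAC, held by 16.1%, 6.43% and 3.17% of windows, were in none of the 8 windows (0 each), which says only that these letters are not there.

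Levels below are log2 signals relative to the 75th percentile of the array, and a difference is between group means of 2 arrays with the SE of a limma fit over all 8 arrays. Levels of different probes are not comparable. A gene was called higher or lower at an adjusted p under 0.05 (limma, Benjamini-Hochberg over all genes).

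KKAy livers had less Hgd signal at both ages, less Tdo2 and Aass signal at 11 weeks, and more Prodh signal at both ages and more Uroc1 signal at 11 weeks. At 4 weeks 2 of the 9 members were called, Prodh higher and Hgd lower, where 15.4% of all genes were called. At 11 weeks 5 of 9 were called, Uroc1 and Prodh higher and Tdo2, Hgd and Aass lower, where 21.5% of all genes were called. Because the members were chosen with earlier results of these data known, the shares of all genes describe these counts and do not test them. The median difference over the 9 members was 0.06 at 4 weeks and -0.30 at 11 weeks, against 0.01 and -0.00 over all genes. Hpd, Fah, Hal and Cdo1 passed the test at neither age. The 11-week calls of Uroc1, Aass and Prodh were lost with no filter on dim probes and in a fit of the 4 arrays of that age alone. Those of Hgd and Tdo2 at 11 weeks held in both of these fits. Both 4-week calls were lost in a fit of the 4 arrays of that age alone. The 11-week calls of Uroc1, Aass and Prodh were also lost whichever array was left out. Other calls lost without particular arrays are given gene by gene below. With scaling to the spike-in controls the median of all genes moved to 0.37 at 4 weeks and 0.12 at 11 weeks, and the calls in favour of KKAy went from 41.6% to 76.0% of all calls at 4 weeks and from 46.4% to 59.0% at 11 weeks. No called member changed its direction under that scaling, but the members called were then Prodh, Uroc1 and Cdo1, all higher, at 4 weeks and Hgd and Tdo2, both lower, at 11 weeks.

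**Figure D1:**
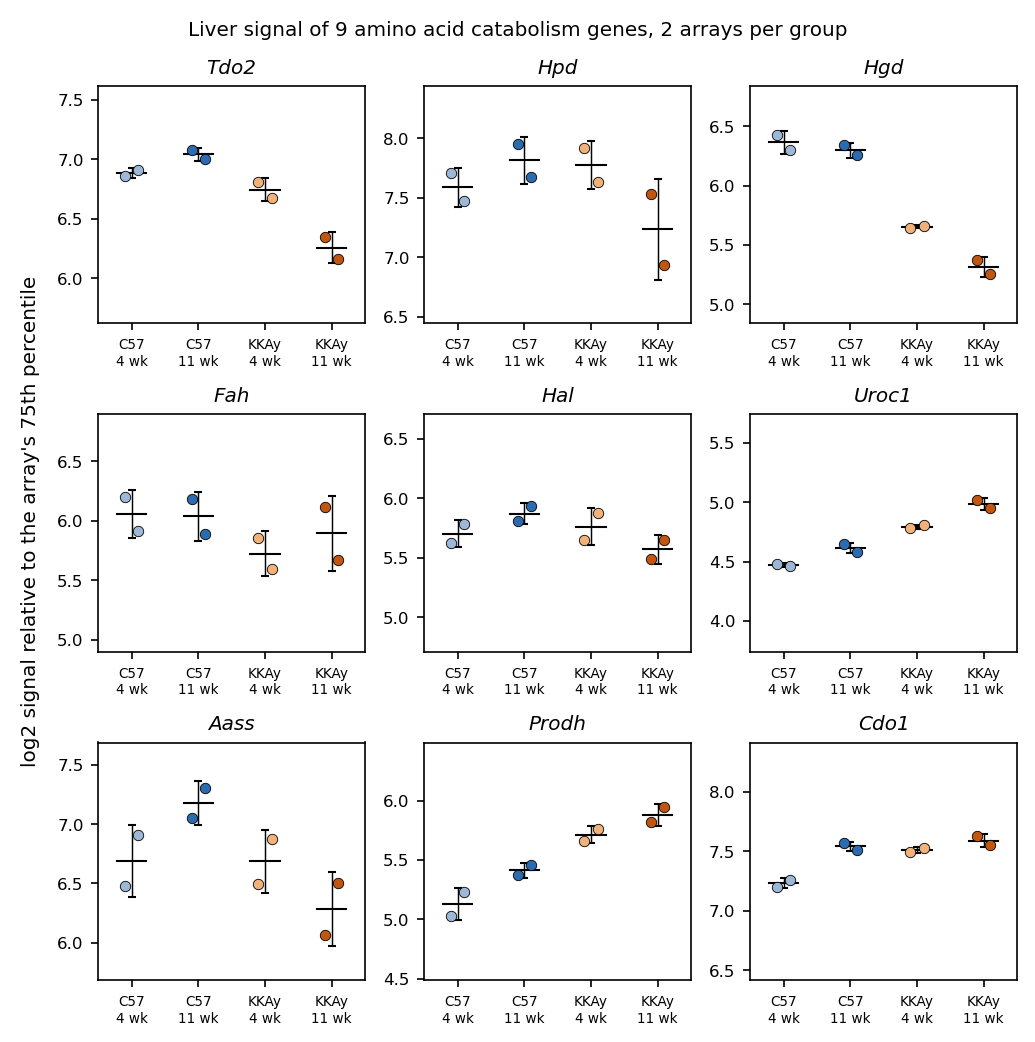
Level of each of the 9 genes on each array (points, replicate 1 left and replicate 2 right), as log2 signal relative to the 75th percentile of the array, with the mean (line) and SD (bars) of the 2 arrays per group. Each vertical axis spans about 2 log2 units over its own range, and C57 stands for C57BL/6J. Hgd lies lower on all 4 KKAy arrays (5.25 to 5.66) than on all 4 C57BL/6J arrays (6.25 to 6.43), and Prodh lies higher (5.66 to 5.94 against 5.03 to 5.45).

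Tdo2, the entry enzyme of the kynurenine pathway (brightest probe at chr3:82054160-82055437, mm8, minus strand), was lowest in 11-week KKAy liver. The C57BL/6J arrays read 6.86 and 6.91 at 4 weeks and 7.08 and 7.0 at 11 weeks. The KKAy arrays read 6.81 and 6.68 at 4 weeks and 6.35 and 6.16 at 11 weeks. Both 11-week KKAy arrays therefore lay below all 6 others. At 11 weeks the level was lower by -0.79 (SE 0.11, n = 2 per group, adjusted p = 0.00621 by limma; 95% interval -1.07 to -0.50), a signal at 58.0% of that in C57BL/6J. At 4 weeks the difference was -0.14 (SE 0.11, adjusted p = 0.538). The second probe (chr3:82049923-82052933) gave -0.62 at 11 weeks and -0.07 at 4 weeks. The 11-week call was lost without replicate 1 of C57BL/6J at 11 weeks (adjusted p = 0.0594) and held without any other single array.

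Further along the kynurenine pathway the genes did not move together. Of 11 other tryptophan genes tested, 2 were called at 4 weeks and 5 at 11 weeks, 4 of the latter higher in KKAy. That is 18.2% and 45.5%, against 15.4% and 21.5% of all genes. Afmid and Kmo, the next enzymes, stood at 0.32 (adjusted p = 0.11) and -0.08 (adjusted p = 0.849) at 11 weeks. Kynu, which cleaves kynurenines, stood at -0.73 and -0.76 at the 2 ages on its brightest probe (adjusted p = 0.118 and 0.0823) and at -2.37 and -2.02 on its second. Haao, which makes the precursor of quinolinate, was higher in KKAy at 11 weeks by 0.48 (SE 0.10, adjusted p = 0.0205), and Kyat1, which turns kynurenine into kynurenic acid, by 0.60 (SE 0.10, adjusted p = 0.00842). Acmsd, which diverts the pathway away from NAD synthesis, was lower by -2.50 (SE 0.41, adjusted p = 0.00934). Its arrays read -2.0 and -2.66 in C57BL/6J and -4.37 and -5.29 in KKAy at that age; the last of these was not well above background, and with normexp background correction the difference was -1.03. Without single arrays of the 11-week groups the calls of these 3 genes could be lost: Acmsd without replicate 1 of C57BL/6J (adjusted p = 0.0673), Kyat1 without either C57BL/6J array and Haao without any of the 4, with adjusted p up to 0.0746 and 0.143.

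Of the 3 tyrosine enzymes among the members Hgd was called lower in KKAy at both ages; whether its difference departs from those of Hpd and Fah was not tested. Hgd, which opens the ring of homogentisate (chr16:37541125-37541184, mm8, plus strand), read 6.43 and 6.30 in C57BL/6J at 4 weeks and 6.34 and 6.25 at 11 weeks. In KKAy it read 5.65 and 5.66 at 4 weeks and 5.37 and 5.25 at 11 weeks, so the strains did not overlap at any age and the 11-week KKAy arrays were lowest. The KKAy signal was 61.2% of that in C57BL/6J at 4 weeks (-0.71, SE 0.11, adjusted p = 0.00845 by limma) and 50.6% at 11 weeks (-0.98, SE 0.11, adjusted p = 0.00212). The 11-week call held without each of the 8 arrays in turn (adjusted p up to 0.0279). The 4-week call was lost without replicate 1 of C57BL/6J or either replicate of KKAy at 4 weeks (adjusted p up to 0.0623), with quantile normalization, in a fit of the 4 arrays alone, and with spike-in scaling, where the difference was -0.35 (adjusted p = 0.232).

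Hpd, the enzyme just before Hgd (chr5:123432846-123434969, mm8, minus strand), read 7.71 and 7.48 in C57BL/6J at 4 weeks, 7.96 and 7.67 in C57BL/6J at 11 weeks, 7.92 and 7.63 in KKAy at 4 weeks, and 7.53 and 6.93 in KKAy at 11 weeks. The groups overlapped at 4 weeks. At 11 weeks they did not, but the 2 KKAy arrays lay 0.60 apart, and the difference of -0.58 (SE 0.24, 95% interval -1.17 to 0.0028) had an adjusted p of 0.148 in limma. Fah, the last enzyme (chr7:84468591-84469407, mm8, minus strand), read 6.20 and 5.92, then 6.18 and 5.89, in C57BL/6J at 4 and 11 weeks, and 5.85 and 5.59, then 6.12 and 5.67, in KKAy. Its strain differences were -0.34 at 4 weeks (95% interval -0.85 to 0.18, adjusted p = 0.402) and -0.14 at 11 weeks (-0.66 to 0.38, adjusted p = 0.705). A fall of the size of the Hpd value at 11 weeks lies within both intervals.

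Upstream in the same route, Tat, which removes the amino group of tyrosine, read 8.17 and 8.18 in C57BL/6J against 7.33 and 7.29 in KKAy at 11 weeks. It was lower by -0.58 at 4 weeks (SE 0.13, adjusted p = 0.0332) and by -0.87 at 11 weeks (SE 0.13, adjusted p = 0.00655). The 4-week call was lost in 7 of 8 fits without 1 array (adjusted p up to 0.155) and with spike-in scaling (-0.22), and the 11-week call without either C57BL/6J array of that age (adjusted p up to 0.0541). Gstz1, which acts between Hgd and Fah, stood at 0.04 and 0.26 (adjusted p = 0.896 and 0.145). Got1, the cytosolic aspartate aminotransferase, was lower by -0.48 at 4 weeks (SE 0.10, adjusted p = 0.0257), a call lost in 6 of 8 fits without 1 array (adjusted p up to 0.141) and with spike-in scaling (-0.12). It was lower by -1.69 at 11 weeks (SE 0.10, adjusted p = 0.000297), with 6.86 and 6.81 in C57BL/6J against 5.19 and 5.11 in KKAy, and that call held in every fit without 1 array.

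Hgd was the only member whose group means spanned at least 1 log2 unit, and the genes most like it across the 8 arrays, of 14411 named genes, were Smim1 (Pearson r = 0.9987) and Kdm8 (r = 0.9937). These values describe 8 arrays that fall into 4 groups, and they share the strain contrast.

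The 2 histidine enzymes differed in their pattern. Hal, which removes ammonia from histidine (chr10:92946189-92946248, mm8, plus strand), read 5.62 and 5.79 in C57BL/6J at 4 weeks, 5.81 and 5.93 at 11 weeks, and in KKAy 5.65 and 5.87 at 4 weeks and 5.49 and 5.65 at 11 weeks. The strains overlapped at 4 weeks (0.06, adjusted p = 0.858) and were apart by -0.30 at 11 weeks (SE 0.13, 95% interval -0.63 to 0.03, adjusted p = 0.178 by limma). With quantile normalization that value was -0.42 and was called (adjusted p = 0.0251). Uroc1, the next enzyme (chr6:90329847-90329906, mm8, plus strand), read 4.48 and 4.46 in C57BL/6J at 4 weeks and 4.64 and 4.58 at 11 weeks. In KKAy it read 4.78 and 4.80 at 4 weeks and 5.02 and 4.95 at 11 weeks. All 4 KKAy arrays lay above all 4 C57BL/6J arrays. Uroc1 was called at 11 weeks (0.37, SE 0.09, adjusted p = 0.0399) and not at 4 weeks (0.32, SE 0.09, adjusted p = 0.0779). The 11-week call was lost in 13 of 17 alternatives, among them each of the 8 fits that left out 1 array (adjusted p = 0.0799 to 0.211). With spike-in scaling it was lost (adjusted p = 0.123), while the 4-week value was 0.68 and was called (adjusted p = 0.0419).

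Of the 4 other histidine genes tested, 1 was called, at 11 weeks (25.0%, where 21.5% of all genes were called). That gene, Hnmt, which methylates histamine, read 1.36 and 1.48 in C57BL/6J and 2.51 and 2.65 in KKAy at 11 weeks (1.16, SE 0.12, adjusted p = 0.00158) and held in every fit without 1 array. Amdhd1 and Ftcd, the later steps of histidine breakdown, stood at -0.31 and -0.03 at 11 weeks (adjusted p = 0.439 and 0.949), and Amdhd1 at -0.90 at 4 weeks (adjusted p = 0.0609).

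Aass, which condenses lysine with 2-oxoglutarate and splits the product (chr6:23022669-23022728, mm8, minus strand), was lower in KKAy at 11 weeks and alike in mean at 4 weeks. C57BL/6J arrays read 6.48 and 6.91 at 4 weeks and 7.05 and 7.31 at 11 weeks, and KKAy arrays 6.5 and 6.88 at 4 weeks and 6.07 and 6.51 at 11 weeks. The arrays of a group lay 0.26 to 0.44 apart, more than for Tdo2 or Hgd. The difference was -0.89 at 11 weeks (SE 0.24, adjusted p = 0.0478 by limma), a signal at 54.0% of that in C57BL/6J, and -0.01 at 4 weeks (95% interval -0.59 to 0.58, adjusted p = 0.994). The 11-week call was lost in 11 of 17 alternatives, among them each fit without 1 array (adjusted p = 0.0573 to 0.217).

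Of 7 other lysine genes, 1 was called at 4 weeks and 3 at 11 weeks (14.3% and 42.9%, against 15.4% and 21.5% of all genes). Aldh7a1 and Dhtkd1, later enzymes of the route that Aass starts, stood at 0.06 and -0.08 at 11 weeks (adjusted p = 0.777 and 0.885). Crym, a ketimine reductase of the pipecolate branch that also binds thyroid hormone, was higher in KKAy by 3.98 at 4 weeks (SE 0.24, adjusted p = 0.000479) and by 3.51 at 11 weeks (SE 0.24, adjusted p = 0.000464). Its C57BL/6J arrays read from -2.75 to -1.91 and its KKAy arrays from 0.67 to 2.17.

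Prodh, which oxidises proline (chr16:17985361-17985420, mm8, minus strand), was higher in KKAy at both ages. It read 5.03 and 5.23 in C57BL/6J at 4 weeks, 5.37 and 5.45 in C57BL/6J at 11 weeks, 5.66 and 5.76 in KKAy at 4 weeks and 5.82 and 5.94 in KKAy at 11 weeks. The order of the arrays followed the groups, and no groups overlapped. The difference was 0.58 at 4 weeks (SE 0.12, adjusted p = 0.024 by limma) and 0.47 at 11 weeks (SE 0.12, adjusted p = 0.0398). Among the fits without 1 array, the 4-week call was kept only in those that left out an 11-week KKAy array. It was also lost with no filter on dim probes and in a fit of the 4 arrays alone. The 11-week call was lost in 12 of 17 alternatives, among them each fit without 1 array. The rest of these were quantile normalization, spike-in scaling, no filter on dim probes and the 4 arrays alone.

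Aldh4a1, which takes the product of Prodh on to glutamate, was also higher in KKAy, with 4.51 and 4.44 in C57BL/6J against 6.13 and 6.05 in KKAy at 11 weeks. The difference was 0.84 at 4 weeks (SE 0.12, adjusted p = 0.00626) and 1.62 at 11 weeks (SE 0.12, adjusted p = 0.000527). Its second probe gave 0.32 and 1.08, and the mean of both probes was not called at 4 weeks (0.58, adjusted p = 0.183), nor was the brightest probe with quantile normalization (adjusted p = 0.0564). Prodh2, which acts on hydroxyproline, stood at 0.10 and 0.37 (adjusted p = 0.758 and 0.121), and Oat, which joins this route from ornithine, at -0.29 and -0.08 (adjusted p = 0.131 and 0.671). Of the 6 other proline and hydroxyproline genes tested, 2 were called at 4 weeks and 1 at 11 weeks. That is 33.3% and 16.7%, against 15.4% and 21.5% of all genes.

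Cdo1, which oxidises cysteine (chr18:46839097-46839156, mm8, minus strand), read 7.20 and 7.26 in C57BL/6J at 4 weeks and between 7.49 and 7.63 on the other 6 arrays. The strain difference was 0.28 at 4 weeks (SE 0.10, 95% interval 0.04 to 0.51, adjusted p = 0.123 by limma) and 0.05 at 11 weeks (-0.18 to 0.28, adjusted p = 0.779). With spike-in scaling the 4-week value was 0.64 and was called (adjusted p = 0.0474). Csad, the next enzyme towards taurine, was lower in KKAy at 4 weeks by -0.52 (SE 0.11, adjusted p = 0.0303), a call lost with spike-in scaling (-0.16) and in 6 of 8 fits without 1 array (adjusted p up to 0.155). Cbs and Cth, which make cysteine from homocysteine, were lower in KKAy at 4 weeks by -1.31 (SE 0.13, adjusted p = 0.00233) and -0.66 (SE 0.10, adjusted p = 0.00793). At 11 weeks Cbs stood at -0.40 (adjusted p = 0.0907) and Cth was lower by -0.56 (SE 0.10, adjusted p = 0.0114). The calls of Cth were lost in 3 of 8 fits without 1 array at each age: at 4 weeks without either C57BL/6J array or replicate 1 of KKAy (adjusted p up to 0.059), and at 11 weeks without the arrays of the same labels at that age (adjusted p up to 0.0957). With spike-in scaling they were lost too, at -0.30 and -0.43. The Cbs call at 4 weeks held in all 8.

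**Figure D2:**
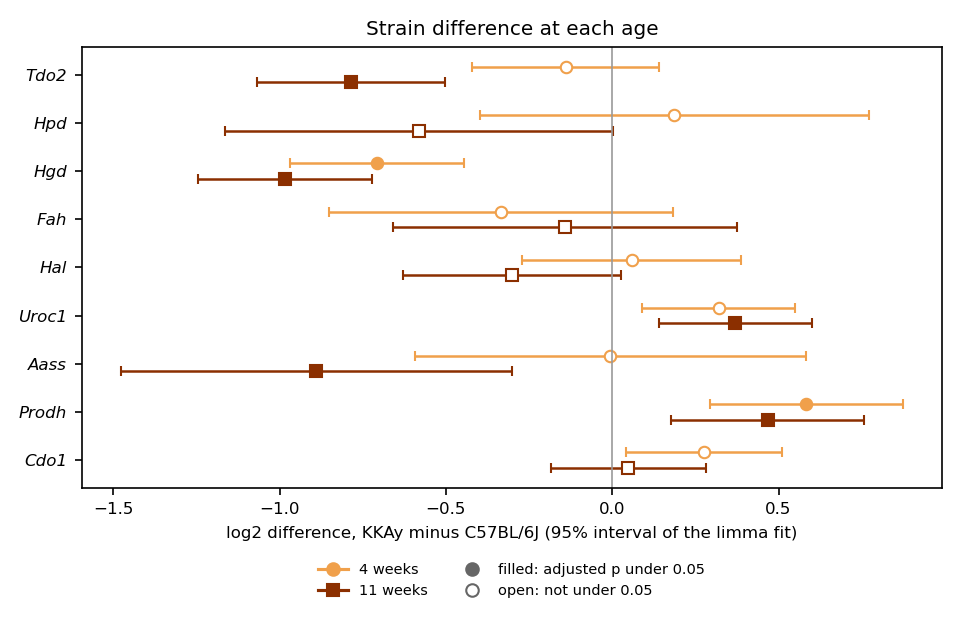
Difference of each member between strains, KKAy minus C57BL/6J, on the log2 scale, at 4 weeks (circles) and 11 weeks (squares), with the 95% interval of the limma fit. Filled symbols passed an adjusted p of 0.05. The intervals of Hgd lie below 0 at both ages, those of Prodh and Uroc1 above 0, and those of Tdo2 and Aass below 0 at 11 weeks only; the intervals for Uroc1 and Cdo1 at 4 weeks lie above 0 although their adjusted p were 0.0779 and 0.123.

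From 4 to 11 weeks no member was called in C57BL/6J (0 of 9), where 8.38% of all genes were called. At an unadjusted p under 0.05, 1 member passed in limma, Cdo1, with 0.31 (SE 0.10, adjusted p = 0.127). In the 8 other processing settings without the replicate block the count of members called at an adjusted p under 0.05 was also 0. The largest value among the rest was that of Aass, 0.48 (SE 0.24, adjusted p = 0.339). In KKAy 1 of 9 members was called, where 18.6% of all genes were called: Tdo2 was lower at 11 weeks by -0.49 (SE 0.11, adjusted p = 0.0354). That call was lost in 12 of 17 alternatives, among them each of the 8 fits without 1 array (adjusted p = 0.0593 to 0.167) and in the mean of its 2 probes, whose second probe gave -0.30. Hgd followed with -0.34 (SE 0.11, adjusted p = 0.0802), and Hpd and Aass stood at -0.54 and -0.40 with wider errors (SE 0.24 each, adjusted p = 0.179 and 0.316). Spike-in scaling moved the median of all genes in the KKAy comparison from 0.02 to -0.20, and 18.8% of its calls were then higher at 11 weeks, against 42.4% before.

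**Figure D3:**
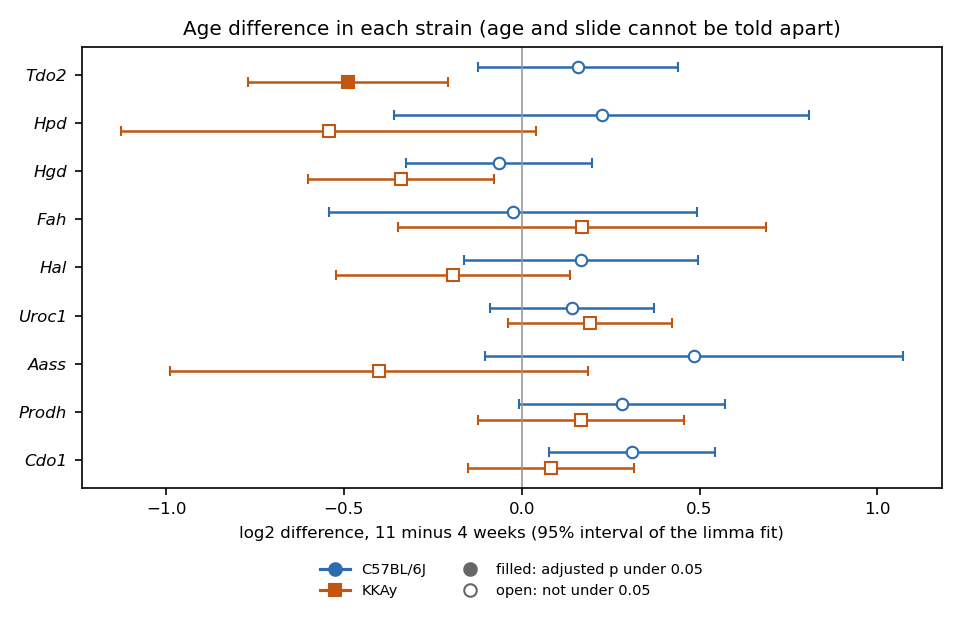
Difference of each member between ages, 11 minus 4 weeks, on the log2 scale, in C57BL/6J (circles) and KKAy (squares), with the 95% interval of the limma fit. Only Tdo2 in KKAy passed an adjusted p of 0.05 (filled). The values of Tdo2, Hpd, Hal and Aass lie above 0 in C57BL/6J and below 0 in KKAy.

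The test of whether the strain difference changed with age called none of the 9 members (0 of 9), where 3.81% of all genes were called. At an unadjusted p under 0.05, 2 members passed in limma: Tdo2 (-0.65, SE 0.16, adjusted p = 0.103) and Aass (-0.88, SE 0.34, adjusted p = 0.25). Across 7 other settings without the replicate block the count of members called at an adjusted p under 0.05 was 0 or 1. For Hgd the change was -0.28 (95% interval -0.65 to 0.09, adjusted p = 0.445) and for Prodh -0.12 (-0.53 to 0.29, adjusted p = 0.835). By this fit the strain differences of Tdo2 and Aass are not shown to differ between the ages; the fit with a replicate block, which calls both, is given with the processing choices.

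The other genes of amino acid breakdown, 96 genes in 9 lists, were set beside the members, and 91 of them were tested. These lists were also chosen with earlier results of these data known. At 4 weeks 14 of 91 were called (15.4%, where 15.4% of all genes were called), 4 higher and 10 lower in KKAy. At 11 weeks 28 of 91 were called (30.8%, against 21.5% of all genes), 16 higher and 12 lower. With spike-in scaling the split turned at 4 weeks, to 9 higher and 2 lower, and was 14 higher and 7 lower at 11 weeks. Their median difference was 0.00 at 4 weeks and 0.01 at 11 weeks. Of 15 sulfur amino acid genes 4 were lower and 0 higher at 4 weeks, and 3 lower and 1 higher at 11 weeks, 26.7% at each age. With spike-in scaling 1 was lower and 1 higher at each age. Of 20 branched-chain genes 1 was higher and 2 lower at 4 weeks, and 3 higher and 0 lower at 11 weeks. That is 15.0% at each age, not above the 15.4% and 21.5% of all genes. With spike-in scaling 3 and 4 branched-chain genes were higher and 0 lower. Bckdhb, a subunit of the branched-chain keto acid dehydrogenase, was higher by 1.21 at 4 weeks (SE 0.10, adjusted p = 0.000988) and 1.5 at 11 weeks (SE 0.10, adjusted p = 0.00037), and Pccb, a subunit of propionyl-CoA carboxylase, by 1.01 at 11 weeks (SE 0.09, adjusted p = 0.00125). Ddc, the aromatic amino acid decarboxylase, was lower at 4 weeks by -1.03 (SE 0.11, adjusted p = 0.0024; -0.67 with spike-in scaling). Sdsl, a relative of serine dehydratase, was lower at 11 weeks by -1.36 (SE 0.09, adjusted p = 0.000451). These calls, with those of Crym, Aldh4a1 and Cbs at 4 weeks and Got1, Hnmt, Crym and Aldh4a1 at 11 weeks, held without each array in turn. Leave-out fits were examined for all 14 catabolism genes called at 4 weeks, of which 5 held in every one, and for 21 of the 28 called at 11 weeks, of which 7 held.

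**Figure D4:**
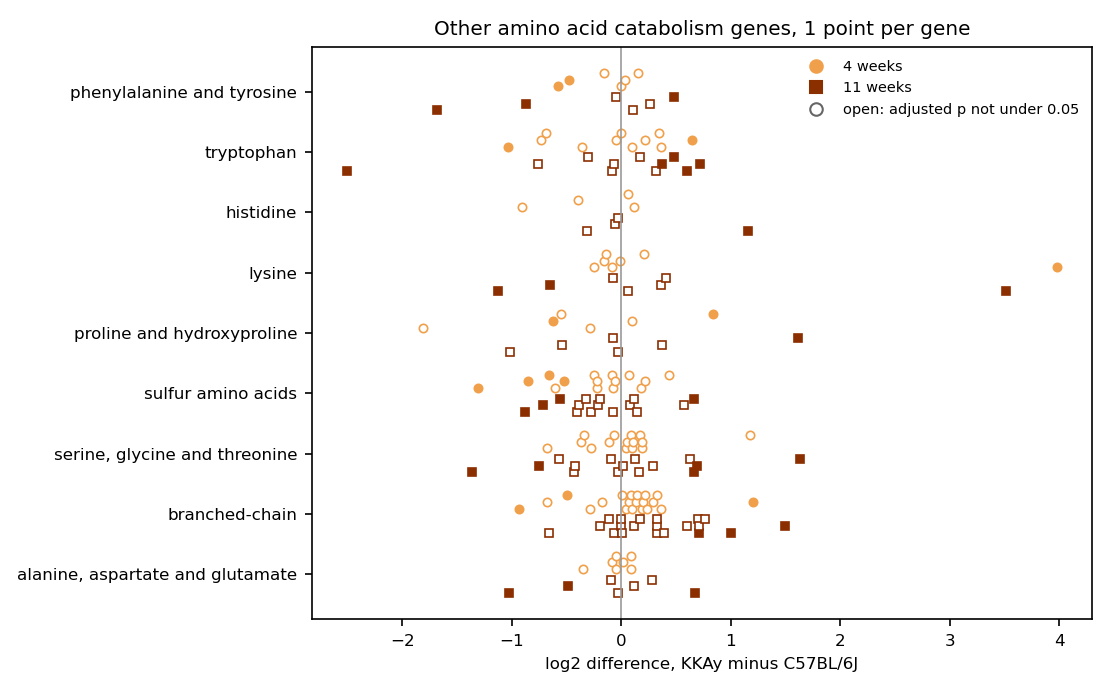
Difference between strains, KKAy minus C57BL/6J, on the log2 scale, of 91 other amino acid catabolism genes in 9 lists (1 point per gene; circles 4 weeks, squares 11 weeks; filled where the adjusted p was under 0.05). The points of most lists lie on both sides of 0, and the far points are Crym in the lysine list (3.98 and 3.51) and Acmsd in the tryptophan list (-2.50 at 11 weeks).

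Between 4 and 11 weeks, 5 of the 91 genes were called in C57BL/6J (5.49%, against 8.38% of all genes), all higher. In KKAy 24 were called (26.4%, against 18.6% of all genes), 19 higher and 5 lower. With spike-in scaling the counts were 1 in C57BL/6J, higher, and 16 in KKAy, 7 higher and 9 lower. Csad was higher at 11 weeks by 0.81 in C57BL/6J (SE 0.11, adjusted p = 0.0104) and 1.48 in KKAy (SE 0.11, adjusted p = 0.00098), and Oat by 0.71 (SE 0.10, adjusted p = 0.0119) and 0.93 (SE 0.10, adjusted p = 0.00324). In KKAy Cbs was higher by 1.0 (SE 0.13, adjusted p = 0.00617) and Got1 lower by -1.48 (SE 0.10, adjusted p = 0.000682). The KKAy calls of these 4 genes held without each array in turn. None of the 5 C57BL/6J calls did (0 of 5), with adjusted p up to 0.112 for Oat without 1 of the 4 C57BL/6J arrays.

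**Figure D5:**
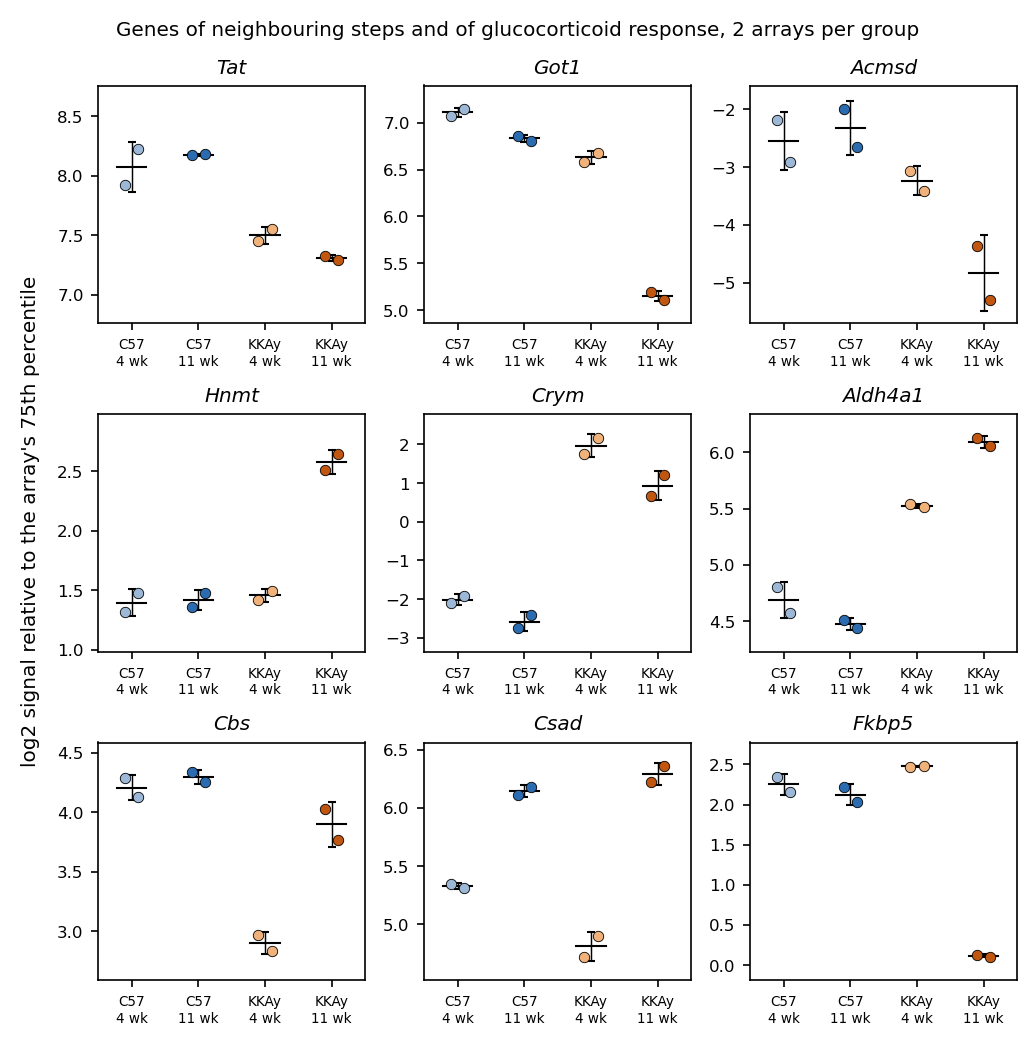
Level of 9 genes of neighbouring steps or of glucocorticoid response on each array (points, replicate 1 left and replicate 2 right), as log2 signal relative to the 75th percentile of the array, with mean (line) and SD (bars) of 2 arrays per group. Got1 and Fkbp5 are lowest in KKAy at 11 weeks, Hnmt is highest there, and Crym is higher on all 4 KKAy arrays.

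Regulators and glucocorticoid-responsive genes, taken as 1 list, moved in both directions, with more calls lower than higher. Of 16 regulators and glucocorticoid-responsive genes, 2 were higher and 5 lower in KKAy at 4 weeks, and 2 higher and 4 lower at 11 weeks. That is 43.8% and 37.5% called, against 15.4% and 21.5% of all genes. This list too was chosen with earlier results of these data known, so these shares are a description only. With spike-in scaling 4 were higher and 1 lower at 4 weeks, and 2 higher and 1 lower at 11 weeks. Fkbp5, a co-chaperone gene induced by glucocorticoids, read 2.22 and 2.03 in C57BL/6J and 0.13 and 0.11 in KKAy at 11 weeks, a difference of -2.0 (SE 0.12, adjusted p = 0.000298 by limma) that held without each array. At 4 weeks its brightest probe stood at 0.22 (adjusted p = 0.309) and its other probes at -0.75 and -0.84. Nr3c1, the glucocorticoid receptor gene, was higher in KKAy by 0.65 at 4 weeks (SE 0.13, adjusted p = 0.0207) and 0.77 at 11 weeks (SE 0.13, adjusted p = 0.00928). The mean of its 4 probes gave 0.53 and 0.64 and was not called, although each probe was above 0 at both ages; the calls were also lost in 6 and 2 of 8 fits without 1 array (at 11 weeks without either C57BL/6J array of that age, adjusted p up to 0.0777; at 4 weeks up to 0.119). Whether these genes bear on Tdo2, Tat or the other members was not tested.

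Of 15 amino acid transporter genes, 2 were higher and 3 lower at 4 weeks, and 6 were lower and 0 higher at 11 weeks. That is 33.3% and 40.0% called, against 15.4% and 21.5% of all genes. With spike-in scaling 3 were higher and 1 lower at 4 weeks, and 2 lower and 0 higher at 11 weeks. Slc7a8, a carrier of large neutral amino acids, was lower by -2.81 at 4 weeks (SE 0.32, adjusted p = 0.00314), and Slc7a2, a carrier of lysine and arginine, by -2.26 at 11 weeks (SE 0.19, adjusted p = 0.000841); both calls held without each array. Markers of the zones of the liver lobule were set beside the members because these enzymes are not evenly spread along it. Of 7 periportal genes 1 was lower at 4 weeks and 3 at 11 weeks, among them Cps1, the entry enzyme of the urea cycle, by -0.91 (SE 0.12, adjusted p = 0.00442). With spike-in scaling 1 periportal gene was higher at 4 weeks and 1 lower at 11 weeks. Of 10 pericentral genes 3 were higher at each age, and 5 and 3 with spike-in scaling, among them Rhbg, an ammonium transporter, by 0.96 (SE 0.10, adjusted p = 0.00223) and 2.04 (SE 0.10, adjusted p = 0.000151). The called shares were 14.3% and 42.9% for periportal genes and 30.0% at each age for pericentral genes, against 15.4% and 21.5% of all genes. At 11 weeks 3 of the 7 periportal values lay above 0 and 4 of the 10 pericentral values below 0. The part of zonation in the members' differences was not tested.

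All 9 hepatocyte markers were well above background on all arrays, and their summed linear level (in units of the 75th percentile) ran from 1830 to 2470 in C57BL/6J at 4 weeks, 2620 to 2630 in C57BL/6J at 11 weeks, 2080 to 2540 in KKAy at 4 weeks and 2480 to 2900 in KKAy at 11 weeks. Marker levels of other cells moved with strain and age. The summed level of 10 Kupffer cell and macrophage markers was 163 to 191, 67.6 to 72.7, 64.0 to 70.6 and 39.5 to 40.7 in the same order, and that of 9 stellate cell markers 58.5 to 66.1, 47.0 to 50.9, 48.3 to 55.9 and 27.3 to 32.9. Summed levels of 4 erythroid markers were 101 to 115, 57.1 to 61.4, 165 to 184 and 93.8 to 106, and those of 7 sinusoidal endothelial markers 41.0 to 42.7, 34.3 to 34.5, 57.6 to 57.7 and 41.8 to 44.4. Of these endothelial markers 1 was higher and 1 lower in KKAy at 4 weeks (median 0.23), and 1 higher and 2 lower at 11 weeks (median -0.06). That is 28.6% and 42.9% called, against 15.4% and 21.5% of all genes. The higher one was Clec4g at both ages. Its probes disagreed, with 0.72 and -0.66 at 4 weeks and 0.47 and -1.01 at 11 weeks. Lymphocyte markers, 10 of 10 tested, summed to 4.77 to 6.33, 2.0 to 2.37, 2.16 to 2.84 and 1.33 to 1.8. Of these 10 only 6 were well above background on all arrays. In KKAy 6 of the 10 were lower at 4 weeks and 4 at 11 weeks, where 9.0% and 11.5% of all genes were lower. Adipocyte markers, 3 of 5 tested, summed to 0.082 to 0.107, 0.201 to 0.222, 0.132 to 0.202 and 0.965 to 1.42, with Lep and Retn not above background. Of the 3 only 1 was well above background on all arrays. The higher sum in KKAy at 11 weeks rests on Cidea, with a strain difference of 3.92. Plin1 was lower in KKAy at that age (-1.36), and Adipoq stood at -1.04. The part of these cells in the members' differences was not tested. The 75th percentile of signal ran from 476 to 1192 fluorescence units. On each array 56.3% to 66.7% of the spots passed the scanner's test against background.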

How the data were processed

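RNA of 8 mouse liver samples was hybridised to Agilent one-colour arrays. Per the file headers, the authors extracted spot intensity in version 9.5.1.1 of Agilent's Feature Extraction; its processed signal is corrected for background, with surrogates for very dim spots, and probe positions are those of mm8. The deposited value table holds log2 values: after subtraction of 1 constant per array, at least 99.97% of its values lay within 0.01 of log2 processed signal. Its column medians lay between -3.96 and -3.67, and it served as an alternative. It had 0 columns of no sample.

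Control spots (1639 of 43379 spots) and flagged spots (59 to 89 per array) were left out, spots of 1 probe were averaged, and log2 processed signal was taken minus each array's 75th percentile. The scanner marked 0 spots as saturated. A probe entered the fit if both arrays of any 1 group had it well above background (25320 probes), and the brightest stood for its gene (17050 genes). Names came from accessions (24367 probes), symbols (6307) or older symbols (2425) of GRCm38.p6 tables, and 8075 probes kept the file's name. Group means were fitted over all 8 arrays with limma 3.58.1 in R 4.3.3 (4 residual and 1.926 prior degrees of freedom; lmFit and eBayes), with Benjamini-Hochberg adjustment over all genes. The number of arrays limits the precision; the median SD within a group was 0.126 to 0.222. The procedure was tested on simulated data, and motifs were counted with pandas 2.3.3 in Python 3.11.15. The motifs, members and gene lists were chosen with earlier results of these data known. Besides the members, genes could be named if they had 1 of the 2 smallest adjusted p of their list in a comparison, among those called, or were neighbouring enzymes; the text gives part of these, the rest enter the counts, and 1 neighbouring enzyme is not reported here. Clec4g, Cidea, Plin1 and Adipoq were named after their values were seen. Alternatives were normexp background correction (offset 50), quantile normalization, spike-in scaling, the deposited table, other filters on dim probes, the 4 arrays of a comparison alone, the replicate number as a block, the mean of a gene's probes, and leaving out each array.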

Additional observations from a re-analysis of the deposited data

Results flagged for a closer look

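Of the genes that could be named beside the members, 10 had a strain difference that changed between 4 and 11 weeks by the limma test of the interaction. Genes could be named for a small adjusted p in this same test, so their count is partly set by that choice. Over all genes 3.81% were called. No member was called, but the members were not picked by this test, so the 2 counts are not comparable. Each value is the log2 strain difference (KKAy minus C57BL/6J) at 11 weeks minus that at 4 weeks, from 2 arrays per group. Among catabolic genes the values were 1.21 for Ddc (adjusted p = 0.0162), 1.1 for Hnmt (adjusted p = 0.0256), -0.83 for Glyctk (adjusted p = 0.0373), -1.21 for Got1 (adjusted p = 0.0129) and -1.25 for Sdsl (adjusted p = 0.0102). Among amino acid transporters they were -1.26 for Slc16a10 (adjusted p = 0.0153), -1.74 for Slc43a1 (adjusted p = 0.027) and -1.52 for Slc7a2 (adjusted p = 0.0408). Rhbg, the pericentral ammonium transporter, came to 1.08 (adjusted p = 0.0168). Fkbp5, the glucocorticoid-induced co-chaperone, came to -2.23 (adjusted p = 0.00406; -2.08 and -1.68 on its other probes), and its call held in each fit without 1 array (adjusted p up to 0.0424). The calls of the other 9 were lost in 6 to 8 of the 8 such fits, with adjusted p up to 0.194. Since each slide held 1 age, these values also compare the slides.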

How the results depend on the processing

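Counts of calls at an adjusted p under 0.05 moved with the settings; counts are given for the 9 members and then the 91 other catabolism genes. Between strains at 4 weeks (2 and 14) they were 1 with quantile normalization for the members, 1 and 8 with no filter on dim probes, 0 and 6 in a fit of the 4 arrays alone, and 0 to 2 and 6 to 13 without 1 array. At 11 weeks (5 and 28) they were 2 with spike-in scaling for the members, 2 and 16 with no filter, 2 and 15 with 4 arrays, and 1 to 2 and 7 to 25 without 1 array. From 4 to 11 weeks in C57BL/6J (0 and 5) the other genes gave 1 with spike-in scaling, 0 with no filter and 3 with 4 arrays, and without 1 array the counts were 0 and 0 to 4. In KKAy (1 and 24) they were 2 with quantile normalization and 0 in the mean of all probes for the members, 0 and 9 with no filter, 0 and 4 with 4 arrays, and 0 and 9 to 15 without 1 array. For the interaction (0 and 5) they were 1 with quantile normalization for the members, 2 with spike-in scaling and 0 with no filter for the others, and 0 and 0 to 2 without 1 array. By construction the fit with no filter took in more genes, 27597 against 17050, and so adjusted over more tests. Fits of the 4 arrays alone or without 1 array had fewer samples. The cause of these moves was not tested. Spike-in scaling also moved the median interaction of all genes to -0.23; positive values then made up 34.5% of its calls, against 54.0%. Over all genes, calls at 4 weeks between strains went from 2626 to 1766 with normexp background correction, 1505 with no filter and 1405 with 4 arrays; at 11 weeks from 3660 to 2348, 2126 and 2121. The 2 arrays per group limit the precision.

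Replicates share a number across groups, but with 2 per group the numbers do not establish a pairing. Deviations of same-numbered samples correlated at 0.53 to 0.676, and replicate 1 was the higher in all 4 groups for Hpd and Fah and replicate 2 for Hal, Aass and Prodh. With the replicate block, counts were 5 and 41 at 4 weeks, 7 and 61 at 11 weeks, 3 and 34 with age in C57BL/6J, 7 and 58 with age in KKAy, and 4 and 43 for the interaction, where 43.8%, 54.9%, 33.8%, 53.4% and 31.0% of all genes were called. The block added Hpd and Hal (adjusted p = 0.00591 for Hal, limma) at 11 weeks, and for the interaction it called Tdo2 (adjusted p = 0.0123), Hpd, Hal and Aass (adjusted p = 0.00408).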
